A study of Mus musculus with 8 samples.

Results

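The genes of MHC class II antigen presentation and its invariant chain were followed on 8 Affymetrix MG U74Av2 arrays of mouse spinal cord. The members were the classical chains H2-Aa, H2-Ab1, H2-Eb1 and H2-Ea, the invariant chain Cd74, the accessory chains H2-DMa, H2-DMb1, H2-Oa and H2-Ob, and the transactivator Ciita. Every probe set whose array annotation is or includes one of these 10 symbols was taken, which gave 12 of the 12422 probe sets tested, and each of the 10 genes, of 8251 on the array, had a probe set. H2-DMa and H2-DMb1 had 2 probe sets each, and 1 probe set of H2-DMb1 also carries the symbol of the neighbouring gene H2-DMb2. The arrays were made from whole spinal cords of female SJL/J mice aged 8 to 12 weeks in the labels: 5 arrays from 10 mice with experimental autoimmune encephalomyelitis (EAE), an inflammatory demyelinating disease, and 3 arrays from 6 healthy controls, with the RNA of 2 animals pooled on each array. EAE was induced by subcutaneous flank injection of a peptide of proteolipid protein (PLP), given per the methods in complete Freund's adjuvant and with pertussis toxin, and controls received vehicle. Mice with EAE had an average grade of 2.5 in the labels and were also given murine serum albumin into a vein before they were killed. For controls the labels name no albumin, and EAE and albumin cannot be told apart. The labels give day 12 to 14 of EAE for EAE array 2, day 14 for EAE arrays 1 and 4, day 15.5 for EAE array 5 and day 17 for EAE array 3. Array numbers are also batch numbers: batches 1 to 3 each hold 1 EAE and 1 control array, and batches 4 and 5 hold 1 EAE array each.

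MHC class II molecules are pairs of an alpha and a beta chain that present peptides to CD4+ T cells. The invariant chain Cd74 occupies the peptide groove of a new class II molecule and guides it to endosomes, where proteases cut Cd74, the H2-DM pair exchanges its last fragment for other peptides, and the H2-O pair, best known from B cells, modulates H2-DM. Ciita, which is induced by interferon gamma, is the master switch of class II transcription, and in the healthy central nervous system class II is scarce. In the mouse, H2-Aa and H2-Ab1 form the I-A molecule, while H2-Ea and H2-Eb1 form I-E. SJL/J carries the H-2s haplotype, which is known to make no I-E alpha chain, and the reference annotation lists H2-Ea as a transcribed pseudogene.

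The RNA of the invariant chain and of the classical chains other than H2-Ea was much more abundant in EAE. Cd74 rose 35.5-fold, H2-Aa 31.1-fold, H2-Eb1 13.1-fold and H2-Ab1 8.47-fold, while the H2-DM chains rose 2.18-fold to 6.74-fold. Ciita rose 1.28-fold, H2-Oa and H2-Ob did not pass the test at 1.32-fold and 1.19-fold, and H2-Ea was at a dim signal in both groups. In limma with treatment and batch as terms, 9 of 12 probe sets were higher at a Benjamini-Hochberg adjusted p under 0.05 and 0 were lower, where 8.26% of all probe sets were called higher, 11.4% lower and 19.6% in either direction. Without adjustment 11 of 12 had a limma p under 0.05, all of them higher. The median log2 difference was 2.06 for the 12 class II probe sets and -0.05 for all probe sets. In 11 of 12 every EAE array lay above every control array, which held for 10.9% of all probe sets, and 8 of 12 were called and at least 2-fold higher, against 3.37%. In RNA of whole tissue, more cells that carry these transcripts and more RNA per cell cannot be told apart.

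**Figure D1:**
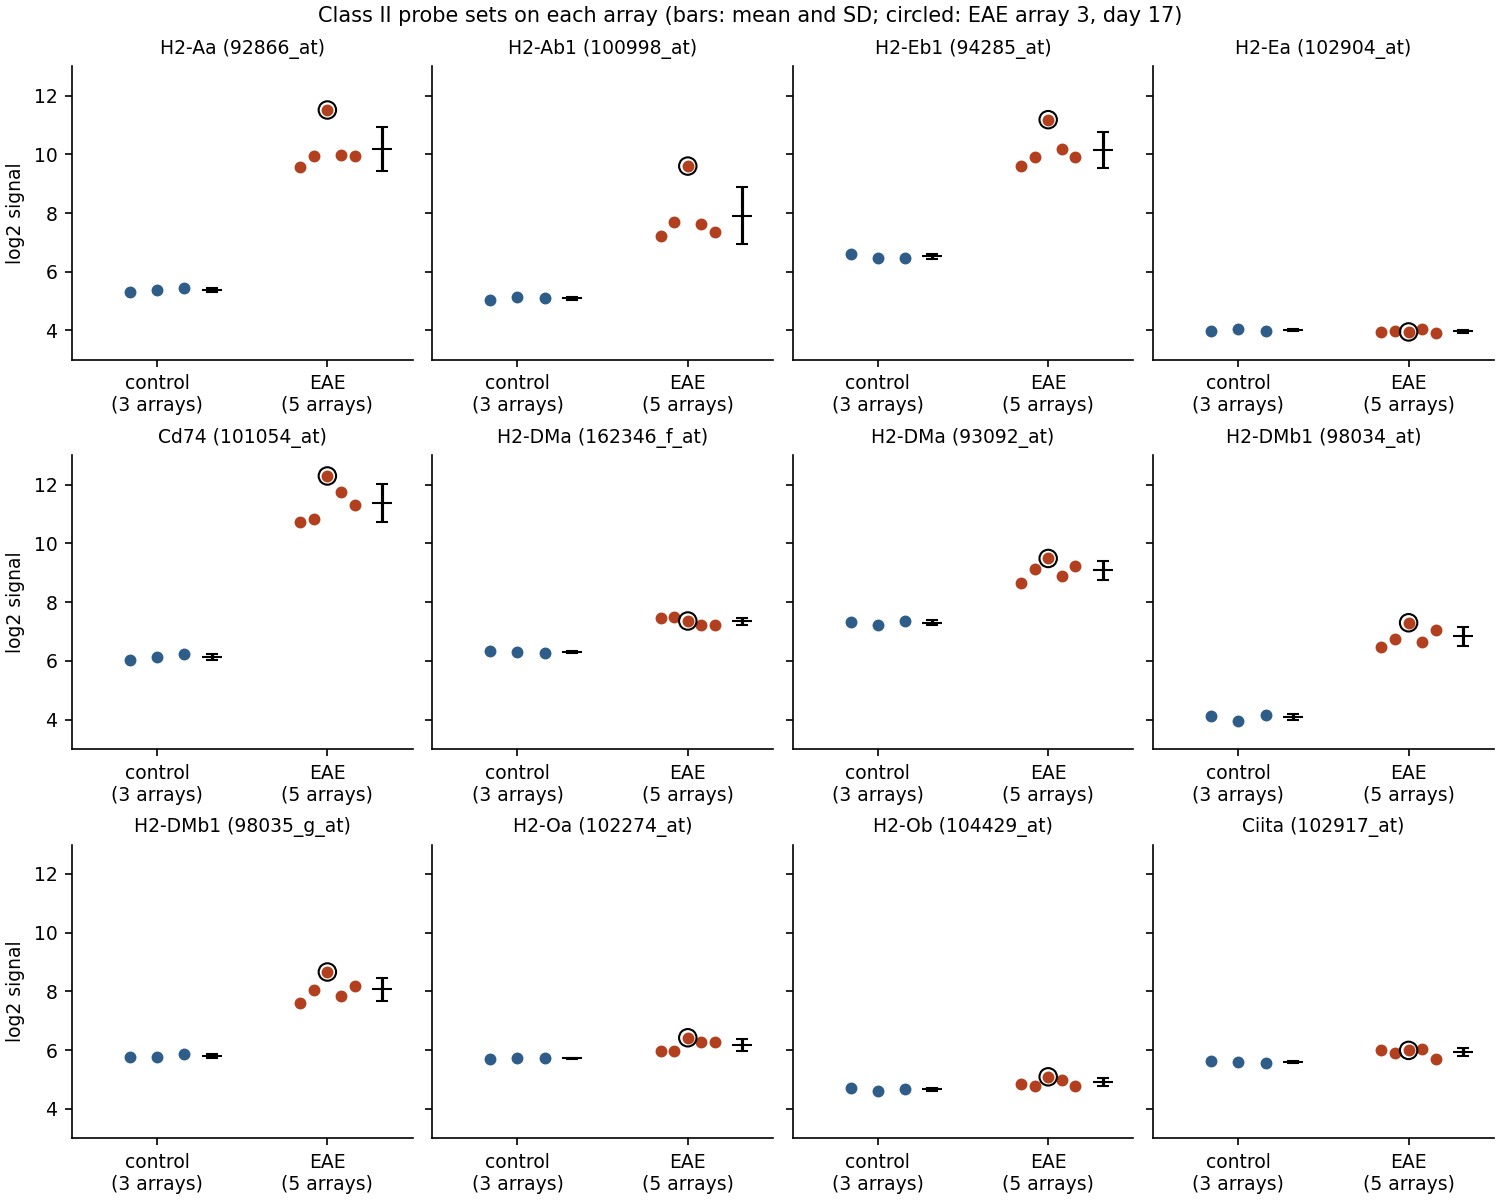
Log2 signal of the 12 class II probe sets on each array (y axis, log2 units), with 3 control arrays and 5 EAE arrays as points and the mean and SD as bars. Groups overlap for H2-Ea alone, and the circled EAE array 3 stands above the other EAE arrays for H2-Aa (11.51, others 9.56 to 9.98) and H2-Ab1 (9.60, others 7.22 to 7.69).

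Class II promoters are known for an X box followed by a Y box, the sites through which Ciita acts. The stretch from X to Y letters is shown for the 5 members whose RefSeq promoter window (GRCm38.p6, from C57BL/6J and not from SJL/J) holds both, and these members run from H2-Aa with a large rise to H2-Ob, which was not called. The letters searched on both strands in the 250 bases before the start were GNAAC for X and TGATTGG for Y, with X before Y and 15 to 35 bases between them, a pattern chosen after the sequences were seen. Capitals mark the X letters and then the Y letters, and each sequence runs along the strand of its gene.
H2-Aa, chr17:34287859-34287912, minus strand: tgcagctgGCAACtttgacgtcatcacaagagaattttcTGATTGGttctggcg
H2-Eb1, chr17:34305768-34305820, plus strand: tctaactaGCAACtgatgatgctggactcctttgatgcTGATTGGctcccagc
H2-DMb1, chr17:34153089-34153142, plus strand: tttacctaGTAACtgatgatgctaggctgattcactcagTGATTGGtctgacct
H2-Oa, chr17:34092295-34092348, plus strand: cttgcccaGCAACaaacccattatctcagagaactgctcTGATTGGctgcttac
H2-Ob, chr17:34238810-34238860, plus strand: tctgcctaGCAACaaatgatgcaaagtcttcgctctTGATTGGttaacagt

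The letters stood 23 to 26 bases apart in these 5 members, with the Y letters 38 to 56 bases before the start. Of all 32851 windows, 7.23% hold the Y letters, 79.6% the X letters and 0.484% both in this order and spacing. Both windows of H2-DMa, whose RNA rose, lack the pattern, and H2-Ab1, H2-Ea, Cd74 and Ciita had no window. The H2-DMa windows (chr17:34122582-34122881 and chr17:34125268-34125567) lie inside the annotated gene (34119693 to 34139101). Other possible starts of H2-DMa were not searched, so a promoter without the pattern is not shown for it. H2-Aa and H2-Eb1 with large rises hold the same letters as H2-Oa and H2-Ob, which were not called.

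The I-A chains were low in every control array and high in every EAE array. H2-Aa, the I-A alpha chain, had log2 signals of 9.56, 9.93, 11.51, 9.98 and 9.93 on EAE arrays 1 to 5, and of 5.31, 5.37 and 5.44 on control arrays 1 to 3. The other EAE values lie close together and that of array 3 stands apart, with a wide gap between all of them and the controls. The means were 10.18 ± 0.76 (SD, n = 5 arrays) and 5.37 ± 0.06 (SD, n = 3 arrays), and the fitted log2 difference was 4.96 (standard error 0.361, limma adjusted p = 0.00173). The 95% interval of the fold change was 16.4 to 59.1. H2-Ab1, the I-A beta chain, was at 7.22, 7.69, 9.60, 7.64 and 7.35 in EAE and at 5.04, 5.13 and 5.11 in control. Here too array 3 was the highest and the groups did not overlap. The means were 7.90 ± 0.97 (SD, n = 5 arrays) and 5.09 ± 0.04 (SD, n = 3 arrays), with a log2 difference of 3.08 (standard error 0.456, limma adjusted p = 0.0129) and a fold interval of 3.77 to 19.0. Without EAE array 3, or without control array 3, the log2 difference was 2.37 for H2-Ab1 (limma adjusted p = 0.00989) and 4.40 for H2-Aa (limma adjusted p = 0.00453).

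Of the I-E chains, H2-Eb1 rose and H2-Ea was not called. H2-Eb1, the I-E beta chain, was at 9.60, 9.91, 11.18, 10.18 and 9.90 in EAE and at 6.62, 6.47 and 6.48 in control. Every EAE array exceeded every control array, and array 3 was again the highest. The log2 difference was 3.71 (standard error 0.329, limma adjusted p = 0.00325), a fold interval of 7.30 to 23.5. H2-Ea, the I-E alpha chain, was at 3.95, 3.99, 3.95, 4.05 and 3.91 in EAE and at 3.98, 4.05 and 3.99 in control. These values overlap and lie near the bottom of the array, at the 1.96 percentile of signal in EAE and the 2.17 percentile in control. The log2 difference of H2-Ea was -0.04 (standard error 0.0628, limma adjusted p = 0.707), and its 95% interval ran from -0.20 to 0.12.

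Cd74, the invariant chain, showed the largest fitted difference of the class II genes. Its log2 signals were 10.74, 10.83, 12.30, 11.75 and 11.31 in EAE and 6.03, 6.14 and 6.24 in control. The EAE values spread more evenly than those of H2-Aa, with arrays 3 and 4 at the top. The means were 11.38 ± 0.65 (SD, n = 5 arrays) and 6.14 ± 0.11 (SD, n = 3 arrays), and the log2 difference was 5.15 (standard error 0.293, limma adjusted p = 0.000856), a fold interval of 21.1 to 59.7. Over all probe sets of an array, Cd74 stood at the 51.1 percentile of signal in control and the 99.5 percentile in EAE.

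The H2-DM chains, which load peptide, were higher on every EAE array than on any control array. For H2-DMb1, the beta chain, the probe set with this symbol alone was at 7.60, 8.06, 8.66, 7.84 and 8.20 in EAE and at 5.77, 5.76 and 5.87 in control, a log2 difference of 2.31 (standard error 0.186, limma adjusted p = 0.00241). The probe set shared with H2-DMb2 was at 6.47, 6.75, 7.30, 6.63 and 7.04 in EAE and at 4.13, 3.96 and 4.16 in control, a log2 difference of 2.75 (standard error 0.159, limma adjusted p = 0.000896). Both probe sets order the EAE arrays alike, with array 3 highest and array 1 lowest. H2-DMb2 has a further probe set of its own, where the log2 difference was 0.36 (limma adjusted p = 0.0727). For H2-DMa, the alpha chain, the brighter probe set was at 8.67, 9.13, 9.49, 8.90 and 9.23 in EAE and at 7.31, 7.21 and 7.37 in control, a log2 difference of 1.80 (standard error 0.156, limma adjusted p = 0.00307). The dimmer one, whose suffix marks probes that may also match related sequences, was at 7.47, 7.48, 7.36, 7.21 and 7.24 in EAE and at 6.34, 6.31 and 6.27 in control, a log2 difference of 1.13 (standard error 0.0643, limma adjusted p = 0.000856). The H2-DMa probe sets differ in size and in order: array 3 is the highest EAE array for the brighter one and the third for the dimmer one.

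The H2-O chains, which modulate H2-DM, did not pass the test. H2-Oa was at 5.98, 5.97, 6.42, 6.27 and 6.29 in EAE and at 5.71, 5.74 and 5.74 in control. The groups do not overlap, but the log2 difference of 0.40 (standard error 0.110) missed the threshold (limma adjusted p = 0.0665). Without the batch block it was 0.46 and passed (limma adjusted p = 0.0208). H2-Ob was at 4.86, 4.78, 5.09, 4.99 and 4.79 in EAE and at 4.72, 4.61 and 4.66 in control, a log2 difference of 0.25 (standard error 0.0851, limma adjusted p = 0.115). The lowest EAE and the highest control value of H2-Ob are close to each other. The 95% intervals of the fold change reached 1.60 for H2-Oa and 1.38 for H2-Ob.

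Ciita, the transactivator, was at 6.01, 5.90, 5.99, 6.05 and 5.71 in EAE and at 5.64, 5.61 and 5.57 in control. EAE array 5 lay just above the controls and the other EAE arrays close to each other. The means were 5.93 ± 0.14 (SD, n = 5 arrays) and 5.61 ± 0.04 (SD, n = 3 arrays), and the log2 difference was 0.36 (standard error 0.0677, limma adjusted p = 0.0244), a fold interval of 1.14 to 1.45. The call of Ciita was lost without EAE or control array 1 (limma adjusted p = 0.0678), 2 (0.0753) or 3 (0.128).

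In exact permutation tests on each probe set over the 56 regroupings of the 8 arrays, p was 0.0179, the smallest these arrays allow, for the 8 probe sets of H2-Aa, H2-Ab1, H2-Eb1, Cd74, H2-DMa and H2-DMb1. It was 0.0357 for H2-Oa, H2-Ob and Ciita and 0.321 for H2-Ea (two-sided, unadjusted). Within batches 1, 2 and 3 the log2 differences were 4.25, 4.56 and 6.07 for H2-Aa, 2.18, 2.57 and 4.50 for H2-Ab1, 2.98, 3.45 and 4.70 for H2-Eb1 and 4.70, 4.68 and 6.06 for Cd74. Batch 3 held the largest of the 3 differences for each of these genes. For Ciita the differences within batches were 0.37, 0.28 and 0.43, and for H2-Ea they were -0.03, -0.06 and -0.04. With batch as a fixed term the fitted difference is the mean of these 3, and EAE arrays 4 and 5 enter the group means and the exact tests but not the fitted difference.

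**Figure D2:**
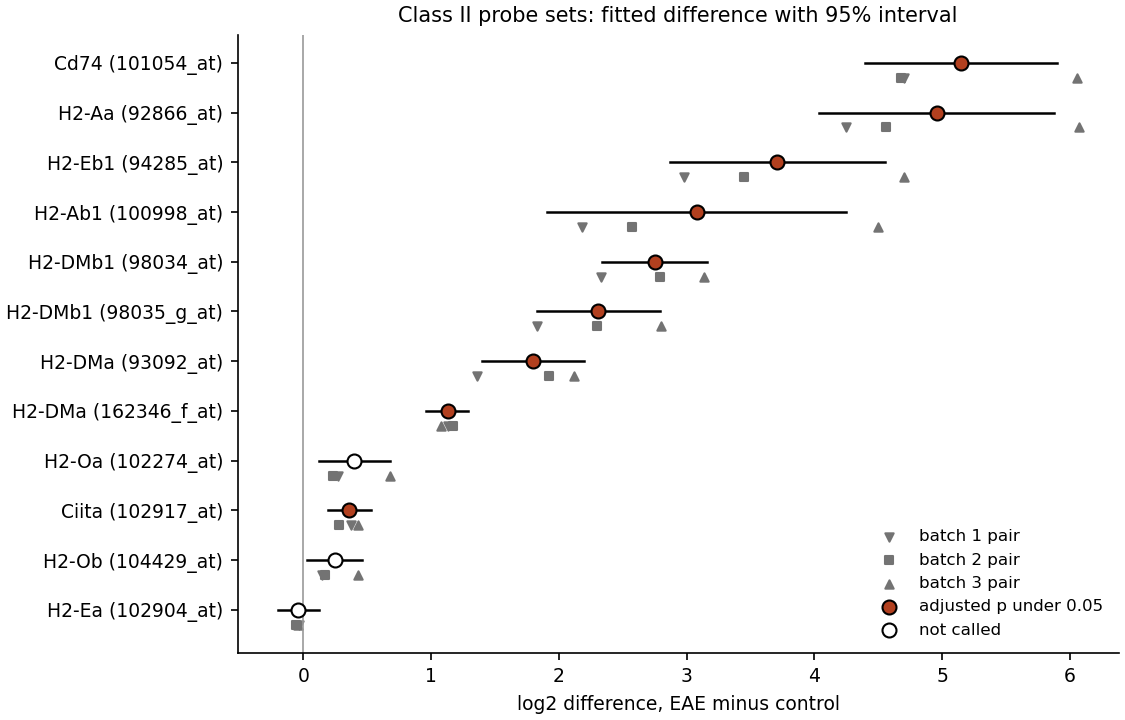
Fitted log2 difference between EAE and control (x axis, log2 units) for the 12 class II probe sets, with the 95% interval as a line, filled points for adjusted p under 0.05 and grey marks for the difference within each of 3 batches. Differences run from 5.15 for Cd74 to -0.04 for H2-Ea, and the batch 3 mark lies to the right for the classical chains H2-Aa, H2-Ab1 and H2-Eb1 and for Cd74.

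The size of the difference between EAE and control varied among the class II genes. The order by the difference of group means, with the brightest probe set of each gene, was Cd74 (5.25), H2-Aa (4.81), H2-Eb1 (3.64), H2-Ab1 (2.81), H2-DMb1 (2.27), H2-DMa (1.79), H2-Oa (0.46), Ciita (0.32), H2-Ob (0.24) and H2-Ea (-0.04), all on the log2 scale. Each pair was compared by an exact permutation test on the difference of both signals per array, adjusted over the 45 pairs, and 39 pairs differed. Of these, 9 are pairs with H2-Ea, which lies at the bottom of the signal range, so that they restate the change of the other gene, and 30 are among the 36 pairs without H2-Ea. Pairs of H2-Oa, H2-Ob or Ciita, which changed little, with a gene that rose more also largely restate the rise of that gene. Among neighbours in the order, Cd74 and H2-Aa did not differ beyond their spread: Cd74 rose by 0.44 more (standard error 0.178, exact p = 0.107, adjusted 0.115), and by 0.03 to 1.01 on the single EAE arrays. Within batches 1 to 3 this difference was 0.46, 0.13 and -0.02. H2-Aa rose by 1.17 more than H2-Eb1 (standard error 0.118, exact permutation adjusted p = 0.0217). H2-Eb1 rose by 0.83 more than H2-Ab1 (standard error 0.195, exact permutation adjusted p = 0.0412). The I-A partners also differed, with H2-Aa 2.00 above H2-Ab1 (standard error 0.112, exact permutation adjusted p = 0.0217) and by 1.62 to 2.30 on the single arrays. A difference between probe sets can lie in the probes as well as in the RNA, since a probe set's response is its own.

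The exact test, which takes no account of batch, did not separate H2-Ab1 from either H2-DM chain. H2-Ab1 rose by 0.54 more than H2-DMb1 (standard error 0.301, exact permutation adjusted p = 0.224) and by 1.02 more than H2-DMa (standard error 0.346, exact permutation adjusted p = 0.0784). Within batches 1, 2 and 3 it exceeded H2-DMb1 by 0.35, 0.27 and 1.70 and H2-DMa by 0.82, 0.64 and 2.38, the same sign in each of the 3 pairs. H2-DMb1 rose by 0.49 more than its partner H2-DMa (standard error 0.0544, exact permutation adjusted p = 0.0217), by 0.43 to 0.67 on every EAE array. The same comparison did not separate H2-Oa from H2-Ob (0.22, exact permutation adjusted p = 0.0784), H2-Oa from Ciita (0.13, exact permutation adjusted p = 0.429) or Ciita from H2-Ob (0.09, exact permutation adjusted p = 0.310). Leaving out any control array leaves 21 regroupings and a smallest p of 0.0476, with which 0 pairs passed.

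EAE array 3, the pool of day 17, was the highest EAE array for 9 of 12 class II probe sets, where array 3 was the highest for 23.8% of all probe sets. Among the probe sets called higher it was the highest for 7 of 9 class II probe sets and for 31.5% of all. Relative to the mean of the other 4 EAE arrays it was higher by 2.13 for H2-Ab1, a fold of 4.37, by 1.66 for H2-Aa, a fold of 3.16, by 1.28 for H2-Eb1 and by 1.15 for Cd74, on the log2 scale. The excess was smaller for the brighter probe sets of H2-DMb1 (0.74) and H2-DMa (0.50) and for H2-Oa (0.30) and H2-Ob (0.24). For Ciita it was 0.08 and for H2-Ea -0.02. Control array 3, of the same batch, differed from the other controls by -0.07 to 0.16 over the class II probe sets.

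Array 3 lay at least 1 log2 unit above every other EAE array for 22 probe sets, 0.177% of all, and 2 of these were the class II genes H2-Ab1 (gap 1.91) and H2-Aa (gap 1.53). H2 symbols, a group not set beforehand, were on 8 of the 22 (36.4%) and on 49 of all 12422 probe sets (0.394%). The other H2 probe sets among them carry class I symbols, such as H2-Q5 (gap 1.77) and H2-Q4 (1.54). All of these others have a suffix for probes that may match more than 1 gene, so they may read the same transcripts. Cd68, a lysosomal protein of macrophages, had a gap of 1.07. EAE arrays 1 and 5 had 4 and 1 such probe sets, and EAE arrays 2 and 4 had 0. Other values also moved with array 3. The mean of the 16 macrophage and microglia markers relative to control was 2.69 on array 3 and 2.15 to 2.25 on the other EAE arrays, and the log2 signal of the 3′ over the 5′ control probe set, a sign of RNA quality, was 0.46 for Gapdh and 1.11 for beta-actin on array 3, the lowest of the 5 EAE arrays. Their part in the class II values was not tested, and day 17, batch 3 and the 2 mice of this pool cannot be told apart.

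The pools of day 14 show how far class II differed between pools of the same day and of different batches. Of the EAE arrays, 1 and 4 had the highest 3′ over 5′ values (Gapdh 1.46 and 2.07, beta-actin 2.35 and 2.79). The part of batch and RNA quality in their difference was not tested. EAE array 4 exceeded EAE array 1 by 1.02 for Cd74, 0.58 for H2-Eb1, 0.42 for H2-Aa and 0.42 for H2-Ab1 on the log2 scale, and by 0.04 for Ciita. The gap of array 3 over the highest other EAE array was 0.55 for Cd74, smaller than this difference between pools, and larger than it for H2-Eb1 (1.00), H2-Aa (1.53) and H2-Ab1 (1.91). No test is possible with 1 array at day 17. EAE array 2, with the earliest day label, lay above the day 14 pools for H2-Ab1 (7.69, against 7.22 and 7.64) and between them for H2-Aa (9.93, against 9.56 and 9.98). Among the arrays before day 17, H2-Ab1 and H2-Aa thus showed no steady order with the labelled day.

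**Figure D3:**
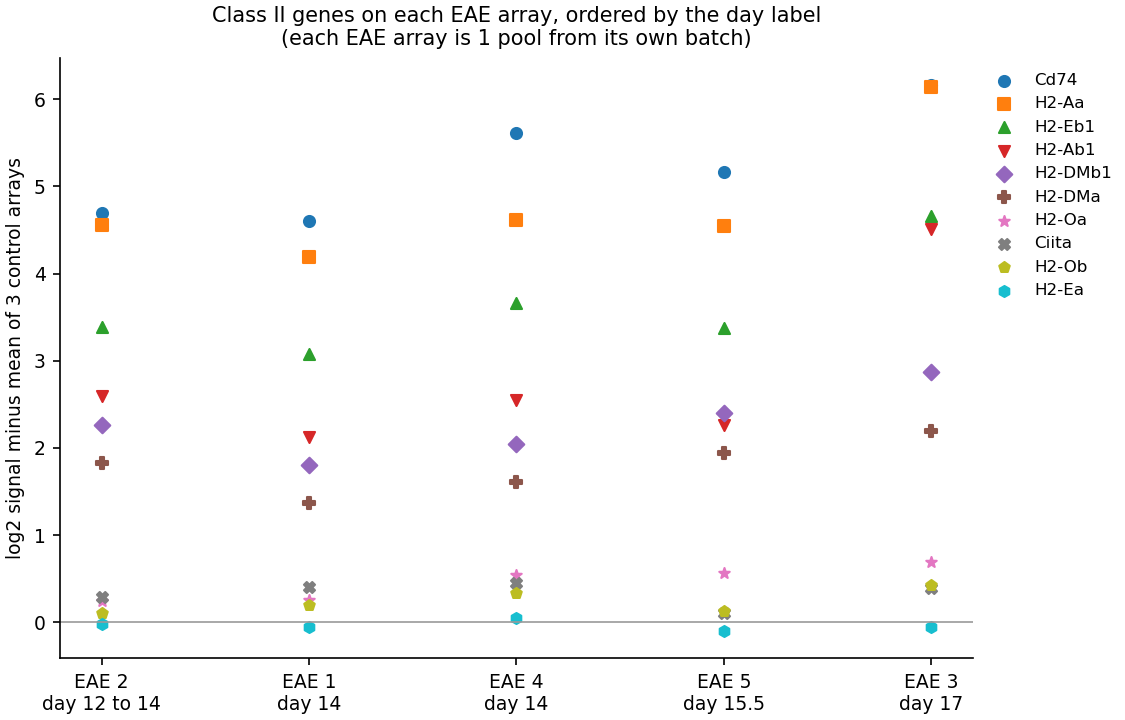
Log2 signal of the 10 class II genes (brightest probe set) on each EAE array minus the mean of the 3 control arrays (y axis, log2 units), with arrays ordered by their day label on the x axis. H2-Aa, H2-Ab1, H2-Eb1 and Cd74 are highest on the array of day 17, while Ciita (0.10 to 0.45) and H2-Ea (-0.10 to 0.05) stay near 0 on every array.

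Genes on both sides of the class II genes were compared from the gene order of GRCm38.p6, in which 8 of the 10 members lie in a single stretch of chromosome 17 and Cd74 and Ciita lie on other chromosomes. Between H2-DMb1 and H2-Ob lie the immunoproteasome and peptide transporter genes of the class I pathway. Of 12 other genes of this stretch, 4 were higher and 0 lower (6 and 1 at an unadjusted limma p under 0.05), with a median log2 difference of 0.10: Psmb8 (4.75, limma adjusted p = 0.000286), Tap1 (3.91, limma adjusted p = 0.000285), Psmb9 (3.53, limma adjusted p = 0.00104) and Tap2 (2.12, limma adjusted p = 0.00142). Of all probe sets, 8.26% were called higher and 11.4% lower. H2-Eb2, a class II gene between H2-Eb1 and H2-Ea that was named after its values were seen, was at -0.07 (limma adjusted p = 0.560). Along the stretch, H2-DMb2, which was not called, lies between H2-DMa and H2-DMb1, and H2-Ob between Tap2 and H2-Ab1, all of which rose.

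**Figure D4:**
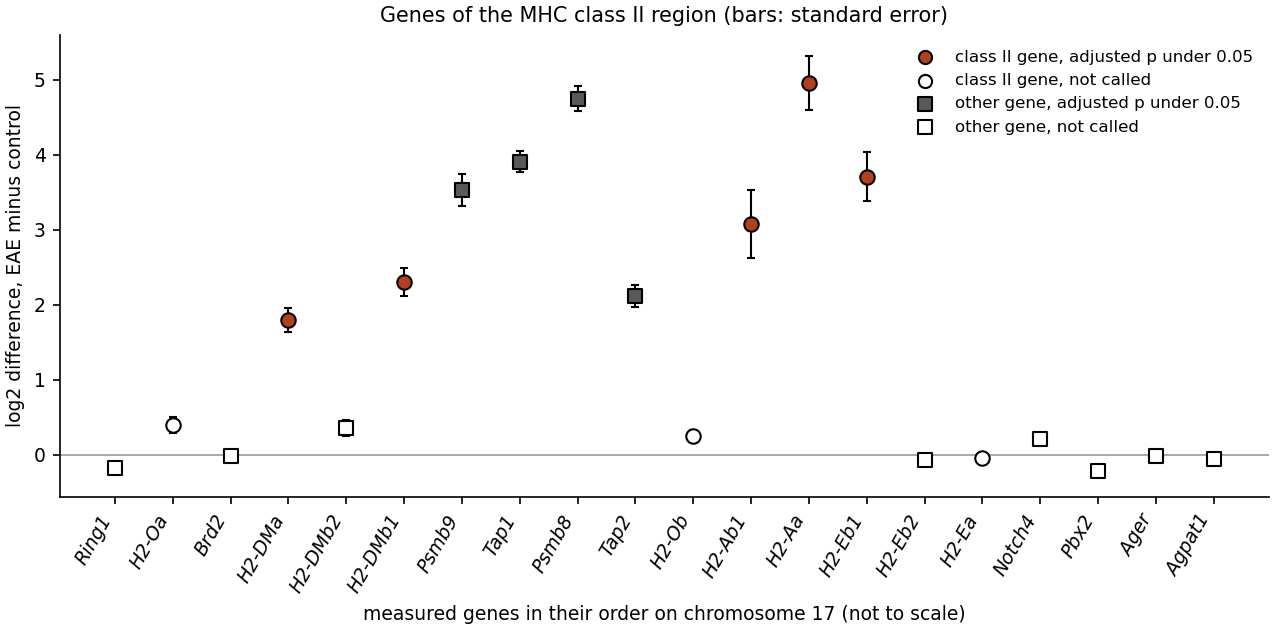
Fitted log2 difference between EAE and control (y axis, log2 units, bars for the standard error) of the measured genes of the class II region in their order on chromosome 17, not to scale. Round points are the class II members and squares all other genes, H2-Eb2 and H2-DMb2 among them, filled where the adjusted p was under 0.05. H2-Aa (4.96) and Psmb8 (4.75) are the highest, while H2-Ea (-0.04) and H2-Eb2 (-0.07), next to H2-Eb1 in this order, lie near 0.

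The path from interferon gamma to Ciita was partly higher. Of 7 genes measured, 4 rose and 0 fell (5 and 0 at an unadjusted limma p under 0.05, median log2 difference 0.51): Irf1, a factor that drives the interferon-induced promoter of Ciita, by 2.94 (limma adjusted p = 0.000421), Socs1, an inhibitor of the pathway, by 1.08 (limma adjusted p = 0.00782), Ifngr1, a receptor chain, by 0.67 (limma adjusted p = 0.0179) and Jak2, a receptor kinase, by 0.51 (limma adjusted p = 0.0134). Ifng itself was at 4.77 to 5.36 in EAE and 4.45 to 4.78 in control (log2 difference 0.35, limma adjusted p = 0.127), named after its values were seen. With every array, 8.26% of all probe sets were called higher. Without EAE or control array 3 only 1 of the 7 was called. Over the whole array that fit called 521 probe sets higher instead of 1026, and 225 lower instead of 1412. This loss also lies behind the counts without array 3 in the lists below. Of 7 measured factors that bind class II promoters or act there with Ciita, 0 rose and 1 fell, also at an unadjusted limma p under 0.05, where 11.4% of all probe sets were called lower, so that 1 of 7 is near the share over the whole array. The one that fell was the coactivator Crebbp (-0.57, limma adjusted p = 0.00849), which was not called without array 3 of either group or without the batch block.

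The list for endosomal processing of Cd74 and antigens held 10 genes, for proteases, a thiol reductase and a protease inhibitor. Of these, 8 rose and 0 fell (9 and 0 at an unadjusted limma p under 0.05), with a median of 1.53. Ctsc, an activator of serine proteases, rose by 3.56 (limma adjusted p = 9.99e-05), Ifi30, a thiol reductase of antigen processing, by 2.84 (limma adjusted p = 0.000683) and Ctss, a protease that cuts Cd74, by 2.47 (limma adjusted p = 0.000421). Without EAE or control array 3, 5 of 10 were called. In the list for trafficking and turnover of class II, 1 of 6 rose, where 8.26% of all probe sets were called higher. This was the tetraspanin Cd63 (0.82, limma adjusted p = 0.00563), which was not called without array 3 of either group. Without the batch block 2 of the 6 rose.

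Signals that accompany class II at the T cell contact were mixed. Of 6 genes for costimulation and adhesion, 4 rose and 1 fell: Cd48 by 2.01 (limma adjusted p = 0.000492), the integrin ligand Icam1 by 1.94 (limma adjusted p = 0.00413) Cd86, a ligand of Cd28, by 0.72 (limma adjusted p = 0.00372) and Cd40 by 0.33 (limma adjusted p = 0.0306). With array 1, 2 or 3 of either group left out 3 rose, and without array 3 Cd40 was not called (limma adjusted p = 0.0980). The one that fell was Cd83 (-0.38, limma adjusted p = 0.0297), which was not called without array 2 or array 3 of either group, nor without the batch block. On the side of CD4+ T cells, 6 of 13 rose and 0 fell (7 and 0 at an unadjusted limma p under 0.05), with Cd2 (0.67, limma adjusted p = 0.00608), Cd3e (0.66, limma adjusted p = 0.00885) and Ctla4 (0.66, limma adjusted p = 0.00763) at the top. Without EAE or control array 3 the count was 2. With every array, 8.26% of all probe sets were called higher and 11.4% lower. Cd4, the coreceptor for class II, had a mean of 6.14 ± 0.04 over the EAE arrays (SD, n = 5) and of 5.97 ± 0.05 over the controls (SD, n = 3; log2 difference 0.17, limma adjusted p = 0.181), also named after its values were seen.

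**Figure D5:**
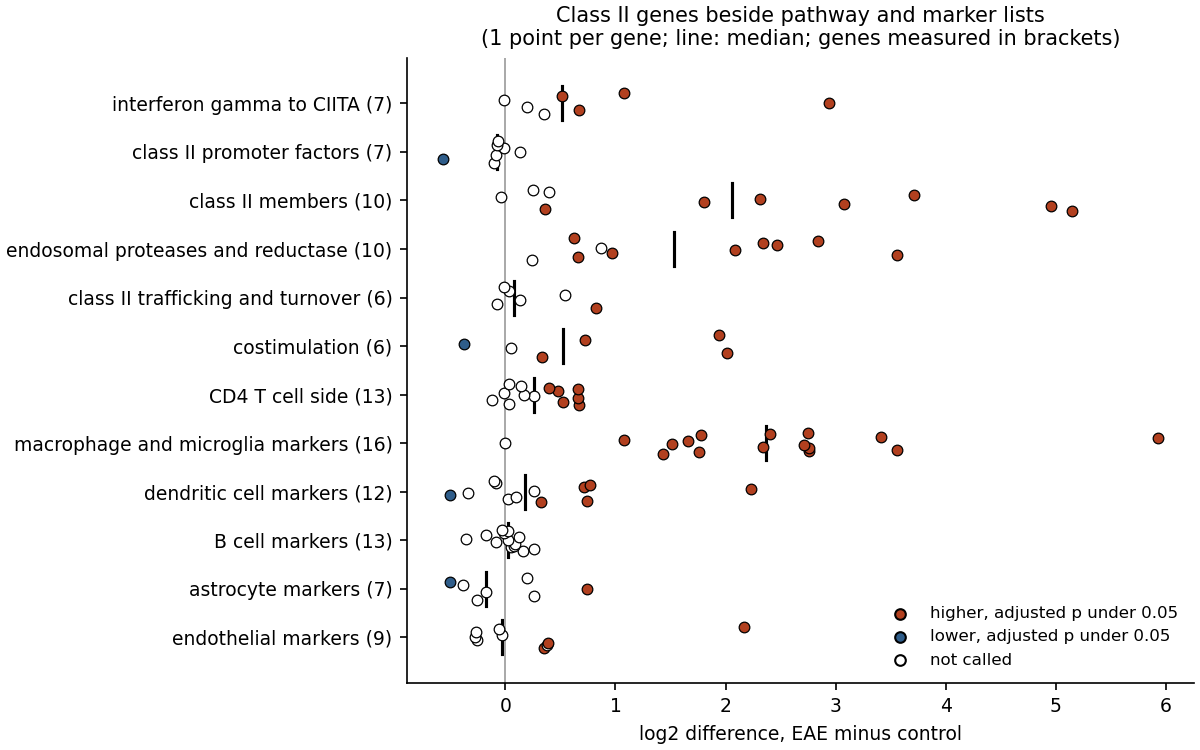
Fitted log2 difference between EAE and control (x axis, log2 units) of each gene measured in 12 lists, with filled points for adjusted p under 0.05 and a line at the median of each list. The class II genes and the macrophage and microglia markers reach the furthest to the right, and the B cell markers lie around 0.

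Cell types known to carry class II differed in their markers. Of 16 macrophage and microglia markers, 15 rose (median 2.37), all but Cx3cr1 (0.00, limma adjusted p = 0.988), with Lyz2, a lysozyme, at 5.93 (limma adjusted p = 0.000323), C1qb, a complement chain, at 3.56 (limma adjusted p = 0.000918) and Mpeg1, a pore-forming protein, at 3.41 (limma adjusted p = 0.000323). Of all probe sets, 8.26% were called higher. The mean of the 16 markers relative to control was 2.15 to 2.69 on the EAE arrays and -0.05 to 0.08 on the control arrays. For the 10 class II genes the same mean was 1.80 to 2.80 on the EAE arrays and -0.01 to 0.02 on the control arrays. Both sets of values were thus higher on every EAE array, and the part of these cells in the class II values was not tested.

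Of 12 dendritic cell markers, 5 rose and 1 fell (median 0.18): Irf8, which macrophages and microglia also express, rose by 2.23 (limma adjusted p = 0.00102), Ly75 by 0.77 (limma adjusted p = 0.00890), Ccl17 by 0.74 (limma adjusted p = 0.0199), Itgax by 0.71 (limma adjusted p = 0.00478) and Batf3 by 0.32 (limma adjusted p = 0.0364). Flt3 fell by 0.50 (limma adjusted p = 0.0193). Of all probe sets, 8.26% were called higher and 11.4% lower. Without EAE or control array 3 the counts were 2 and 0, and the number that fell was 2 without array 1 and 0 without array 2 of either group. Of 13 B cell markers 0 were called in limma in either direction (median 0.02), with 1 higher and 1 lower at an unadjusted p under 0.05, and the mean relative to control was 0.00 to 0.03 on the EAE arrays and -0.06 to 0.11 on the control arrays. The largest differences were those of Ighm (-0.36, limma adjusted p = 0.0967) and Cd22 (0.26, limma adjusted p = 0.138). Among the defining B cell markers, Cd79a was at 5.63 to 5.90 in EAE and 5.66 to 5.81 in control, and Ms4a1 at 6.85 to 6.89 and 6.79 to 7.45. Both of these markers overlapped between the groups, and the part of B cells in the H2-O values was not tested.

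Markers of other cells of the cord were also counted. Of 7 astrocyte markers 1 rose, Gfap (0.74, limma adjusted p = 0.00326), and 1 fell, S100b (-0.50, limma adjusted p = 0.0143), which was not called without array 3 of either group. At an unadjusted limma p under 0.05, 2 were higher and 3 lower, and 2 fell without the batch block. The share of all probe sets called, here and for the lists that follow, was 8.26% higher and 11.4% lower. For astrocytes, 1 of 7 in either direction is near it. Of 9 endothelial markers 3 rose, Vwf (2.17, limma adjusted p = 0.000421), Eng (0.39, limma adjusted p = 0.0331) and Cdh5 (0.35, limma adjusted p = 0.0261), and 0 fell (3 and 2 at an unadjusted limma p under 0.05). Without array 1 or array 3 of either group 1 rose, and without array 1 of either group 1 fell. Of 9 markers of neurons and oligodendrocytes, 0 rose and 3 fell, Mog (-0.89, limma adjusted p = 0.00157), Slc32a1 (-0.84, limma adjusted p = 0.00280) and Snap25 (-0.47, limma adjusted p = 0.0117). At an unadjusted limma p under 0.05, 7 were lower and 0 higher, and 5 fell without array 2 of either group or without the batch block. Mbp, a myelin protein (11.41 to 12.01), and Snap25, a synaptic protein (11.08 to 11.80), were bright on all arrays, as in nervous tissue.

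The genes whose values were most like those of a class II gene were ranked by the mean absolute difference over the 8 arrays, each gene relative to its own control mean. For H2-Aa these were Cxcl9, a chemokine, Psmb8 and S100a8, a calcium-binding protein of myeloid cells, each at 0.30 log2 units, and among the members Cd74 at 0.29. For H2-Ab1 they were Cybb, the catalytic chain of the phagocyte oxidase (0.26), the class I gene H2-Q4 (0.29) and C1qc, a complement chain (0.31). Among the members H2-DMb1 was at 0.39 and H2-Eb1 at 0.55, while its partner H2-Aa was at 1.26. The measure counts the size of a change as well as its pattern. Relative to control, H2-Ab1 minus H2-Aa was -2.30 to -1.62 on the EAE arrays. For Cd74 they were the interferon-induced GTPase Igtp (0.29), Lilr4b (0.33) and the GTPase Ifi47 (0.33), and among the members H2-Aa at 0.29. On array 3 the values relative to control were 3.52 for Cybb and 4.30 for H2-Q4, against 4.51 for H2-Ab1.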

How the data were processed

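RNA pools of 2 spinal cords each were hybridized to 8 Affymetrix MG U74Av2 arrays. The deposited values are on the log2 scale, since the authors used RMA with a quantile step and a GC-content adjustment in Partek Genomics Suite (versions not given in the sources used here). They were not normalized again, and array medians were 6.08 to 6.13. The quantile step gives all arrays nearly the same distribution, so a fold change is relative to the rest of each array.

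Groups, batches and days came from the labels. Arrays of the same number share a batch per the labels, and their deviations from the group means correlated at 0.302, -0.231 and 0.412 in batches 1 to 3. Pearson's r between any EAE and any control array was 0.931 to 0.951, and between arrays of 1 group at least 0.975. The model of EAE against control used limma 3.58.1 (R 4.3.3; treatment and batch, 2 residual and 3.05 prior degrees of freedom) over 12422 probe sets, leaving out 66 control probe sets and setting no filter on dim ones, with two-sided tests, Benjamini-Hochberg adjustment over all of them and a threshold of 0.05. The procedure was tested on simulated data. The number of arrays limits the precision.

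Names came from the array annotation (10833 probe sets with 1 symbol, 396 with several, 1193 with none), and 10817 of those with 1 symbol matched the gene table of GRCm38.p6, used for names and gene order. No genome build is named by the files, and the match of the probes to SJL/J alleles was not checked. The brightest probe set stood for a gene in lists. The members and the 14 lists (162 genes, 137 measured) were chosen with earlier results of these data known. Named are every member probe set, in each list up to 3 genes that passed with the largest change (up to 2 of the largest where none passed), and for H2-Aa, H2-Ab1 and Cd74 the 3 genes with the most similar values. Others were named after their values were seen: Tap2, H2-DMb2, H2-Eb2, H2-Q5, Cd68, Jak2, Ifng, Cd40, Cd83, Cd4, Cx3cr1, Itgax, Batf3, Flt3, Cd79a, Ms4a1 and Mbp. Promoter windows came from RefSeq, which matched 6 of the 10 members. Figures were drawn with matplotlib 3.10.9.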

Additional observations from a re-analysis of the deposited data

Results flagged for a closer look

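In groups of 5 EAE arrays, the gap between the farthest array and its nearest neighbour was compared with the range of the group. EAE array 3 stood apart for H2-Aa (11.51 on the log2 scale, others 9.56 to 9.98, gap over range 0.786) and for H2-Ab1 (9.60, others 7.22 to 7.69, gap over range 0.804), above Dixon's 95% critical value. These are 2 of 12 class II groups, which all rest on the same 5 arrays. In independent groups chance alone flags about 1 in 20. The share flagged over all probe sets was not counted, so an excess over it is not shown.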

How the results depend on the processing

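No class II probe set changed direction under any alternative. The 9 probe sets called higher became 10 without the replicate block, where H2-Oa passed (0.46, limma adjusted p = 0.0208), and also with batch as a random block (0.44, limma adjusted p = 0.0135) and with an intensity trend (0.40, limma adjusted p = 0.0446). They were 9 with array weights, with medians centred, with quantiles normalized once more or with a robust prior, and 7 among brighter probe sets or at an adjusted p under 0.01. Without array 1, 2 or 3 they were 8, and the fit was the same whichever group lost its array. EAE arrays 4 and 5 are alone in their batches, so leaving either out could not change the fit or the 9 calls. Without moderation of the variances, with 2 residual degrees of freedom, 0 class II probe sets were called (limma fit, adjusted p from 0.106 to 0.234 for the 9), and 1 of all probe sets was higher and 0 were lower. With array 1, 2 or 3 of either group left out, 521 to 900 of all probe sets were higher (1026 with every array). The number lower was 225 to 983 (1412 with every array), and both were lowest without EAE or control array 3. Without EAE or control array 2 the number lower was 571. The pairs of class II genes that differed numbered 35 to 39 without an EAE array and 0 without a control array, so 0 to 39, because too few regroupings were left. Leaving out arrays was added for the lists and pairs after the data were seen. The block changed no other call of a class II probe set.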
